A study of Mus musculus with 14 samples.

Results

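The 32 genes described here encode chaperones and oxidoreductases of the endoplasmic reticulum (ER), components of ER-associated degradation, and sensors, transcription factors and targets of the ER stress response. They were taken by gene symbol, and all 32 had a row among the 19660 genes of the liver count table and among the 20203 genes of the kidney count table. Derl3 had been noted for its lower liver level on high salt, so the diet values in liver chose the set. They are given as a description: no p-value is printed for a member there, and counts past a threshold stand beside the share of all genes with nothing read from them.

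RNA was sequenced from liver and kidney of 12-week-old adult male mice. Every animal, controls included, carried a human angiotensinogen transgene of the haplotype named Hap -6A, so no group lacked the transgene. The 4 groups were liver on a normal diet (4 libraries), liver on high salt (4 libraries), kidney on a normal diet (3 libraries) and kidney on high salt (3 libraries). The salt content of the diet, its duration and the mouse strain are not given in the sources used here. The study asked how high salt changes transcription in mice that carry the human gene. Normal diet liver libraries are called 1 to 4 and high salt liver libraries HS5 to HS8, because the high salt columns carry numbers that match no sample title. Nothing states that the libraries of a group came from separate animals, so p-values measure only the spread between these samples.

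Proteins that enter the secretory pathway fold in the ER with the help of chaperones, and molecules that fail to fold are moved back to the cytosol and degraded, a route called ER-associated degradation (ERAD). When unfolded protein builds up, 3 sensors in the ER membrane start the unfolded protein response: IRE1 (gene Ern1), which splices Xbp1 RNA into the form that encodes the active factor XBP1, ATF6, which is cut to release a transcription factor, and PERK (gene Eif2ak3), which slows translation and favours the making of ATF4. XBP1 targets are known above all for ERAD and secretion, ATF6 targets for chaperones, and ATF4 targets for amino acid supply and for cell death, with many genes shared between the arms. The liver secretes most plasma proteins and is rich in ER. Counts per gene do not separate spliced from unspliced Xbp1.

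Promoters of chaperone genes are known to share the ER stress response element (ERSE), through which ATF6 and XBP1 act, and it is shown here for that reason. It was searched as CCAAT and CCACG separated by 9 bases, without mismatch, on both strands of the RefSeq promoters (build GRCm38.p6, from 250 bases before to 50 bases after the gene start). Of the 32 genes, 28 had a promoter in that table, and the 4 others were Atf6, Derl1, Hyou1 and Manf. The element stood in the promoters of 9 of these 28 genes and in 0.119% of all 32851 promoters. Hsp90b1 held it in 2 places. Each match is given in the orientation of the motif, with its fixed letters in capitals and 5 bases on either side.
Hspa5: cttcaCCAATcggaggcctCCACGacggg
Calr: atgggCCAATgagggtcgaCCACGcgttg
Pdia6: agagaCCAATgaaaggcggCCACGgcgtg
Creld2: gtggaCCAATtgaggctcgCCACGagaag
Derl3: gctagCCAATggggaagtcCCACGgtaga
The ERSE letters of Hspa5 lie at chr2:34772025-34772043 and those of Pdia6 at chr12:17266491-17266509, both on the strand of the gene. Those of Calr (chr8:84847075-84847093), Creld2 (chr15:88819520-88819538) and Derl3 (chr10:75893242-75893260) lie on the opposite strand. The other genes with the element were Canx, Dnajc3, Hsp90b1 and Syvn1.

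Derl3 is the gene the list was built around, so its 250 bases upstream of the RefSeq start are printed once, from the plus strand at chr10:75893148-75893397. In this orientation the capitals mark the element as its reverse complement.
Derl3 upstream: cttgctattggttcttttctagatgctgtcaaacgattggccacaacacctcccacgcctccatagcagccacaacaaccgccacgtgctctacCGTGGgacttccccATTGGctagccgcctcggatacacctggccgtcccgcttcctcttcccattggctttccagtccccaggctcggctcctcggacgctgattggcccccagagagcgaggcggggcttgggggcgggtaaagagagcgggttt
A shorter known form, ERSE-II (ATTGG, any base, CCACG), stood in the promoters of Herpud1 (chr8:94386377-94386387) and Dnajb11 (chr16:22857852-22857862), 2 of 28, against 0.0365% of all promoters. They read as follows, again with the fixed letters in capitals.
Herpud1: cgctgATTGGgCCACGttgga
Dnajb11: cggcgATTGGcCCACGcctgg
The 8 letters TTGCATCA stood in the promoters of Chac1 and Herpud1 and in 0.895% of all promoters. On the other strand they are a form of the amino acid response element, as searched here, without its last letter. The XBP1 element TGACGTGG was in none of the 28 (0.676% of all), nor was the amino acid element in the form TGATGNAAT (0.965% of all). That form fixes the last letter as T, and whole forms with another last letter were not searched. The short core GACGTG was in those of Ddit3, Hspa5 and Pdia6 (6.38% of all). A match describes letters in a window and does not show that a factor binds there.

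Liver libraries held 37267778 to 51487382 gene counts and kidney libraries 16046094 to 22004927. Hepatocyte markers (8 of 8 with a row) summed to between 63715 and 114690.5 counts per 1000000 (CPM) in liver, and kidney tubule markers to at most 8.81 CPM there and to between 3411 and 5386 CPM in kidney. Several liver libraries stood apart. Normal diet library 4 had a summed level of 15 acute-phase genes of 91886 CPM, against 10551 to 16901 in the other normal diet livers and 6509 to 8375 on high salt. Normal diet libraries 1 and 2 had 2.3% and 2.06% mitochondrial transcripts and the other liver libraries 11.3% to 29.6%. Libraries HS5 and HS6 differed by more than sampling noise (mean chi-square per gene 5.80 with 1 degree of freedom) but by less than any of the 17 other pairs within a group (22.5 to 1202). They were kept as 2 libraries, and their sum as 1 library was an alternative. Nothing states whether they came from the same animal, and if they did, each high salt liver value given with n = 4 would rest on 3 animals.

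In liver most of the set lay lower on high salt, including the chaperone genes Hspa5 (BiP), Hsp90b1 and Calr. The chaperone gene Canx differed by less than its standard error (log2 -0.16 ± 0.19). Log2 fold changes (high salt over normal diet) were below 0 for 29 of the 32 genes, with a median of -0.51, while 52.0% of all 15130 genes tested were below 0, with a median of -0.023. Every high salt library lay below every normal diet library for 15 of the 32, against 6.05% of all genes, and for 0 of the 32 every high salt library lay above, against 6.44%. In all, 14 genes were at least 1.5-fold lower and 5 at least 2-fold lower. In bulk tissue, fewer cells of a type and less RNA per cell cannot be told apart. With edgeR 152 genes of all (1.00%) passed an adjusted p of 0.05. Among the members Derl3 and Sdf2l1 passed it as lower, 2 of 32 beside 0.410% of all genes, and 0 as higher beside 0.595%. Nothing is read from these counts, because Derl3 chose the set.

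These counts depended on single libraries to different degrees. Without normal diet library 4, the same comparison gave 26 of 32 below 0 (50.2% of all genes), a median of -0.49, again 15 genes below without overlap (10.2% of all genes) and 0 above (11.4%). It called 3 members lower (1.38% of all genes), Creld2 being the third. With normal diet libraries 1 and 2 left out, 29 of 32 were below 0 with a median of -0.54. They were not the same 29, since Derl2 went to 0.36 and Sel1l to -0.21. The number of members called lower was 1 without normal diet library 1 (0.0970% of all genes), library 2 (0.0968%) or HS7 (0.275%). It was 8 without normal diet library 3, where 765 genes of all were called (2.54% lower). It was 0 without HS5 (0.0328%), HS6 (0.0260%) or HS8 (0.0593%), or with HS5 and HS6 summed (0.0260%). DESeq2 called 13 members lower (3.91% of all genes). Library 4 was the highest of the 4 normal diet livers for 16 of the 32 genes, against 29.8% of all genes, and it exceeded the next by over 1.5 times for Derl3, Hyou1, Creld2, Syvn1, Ddit3 and Chac1. The part of its acute-phase state in these differences was not tested beyond leaving it out.

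**Figure D1:**
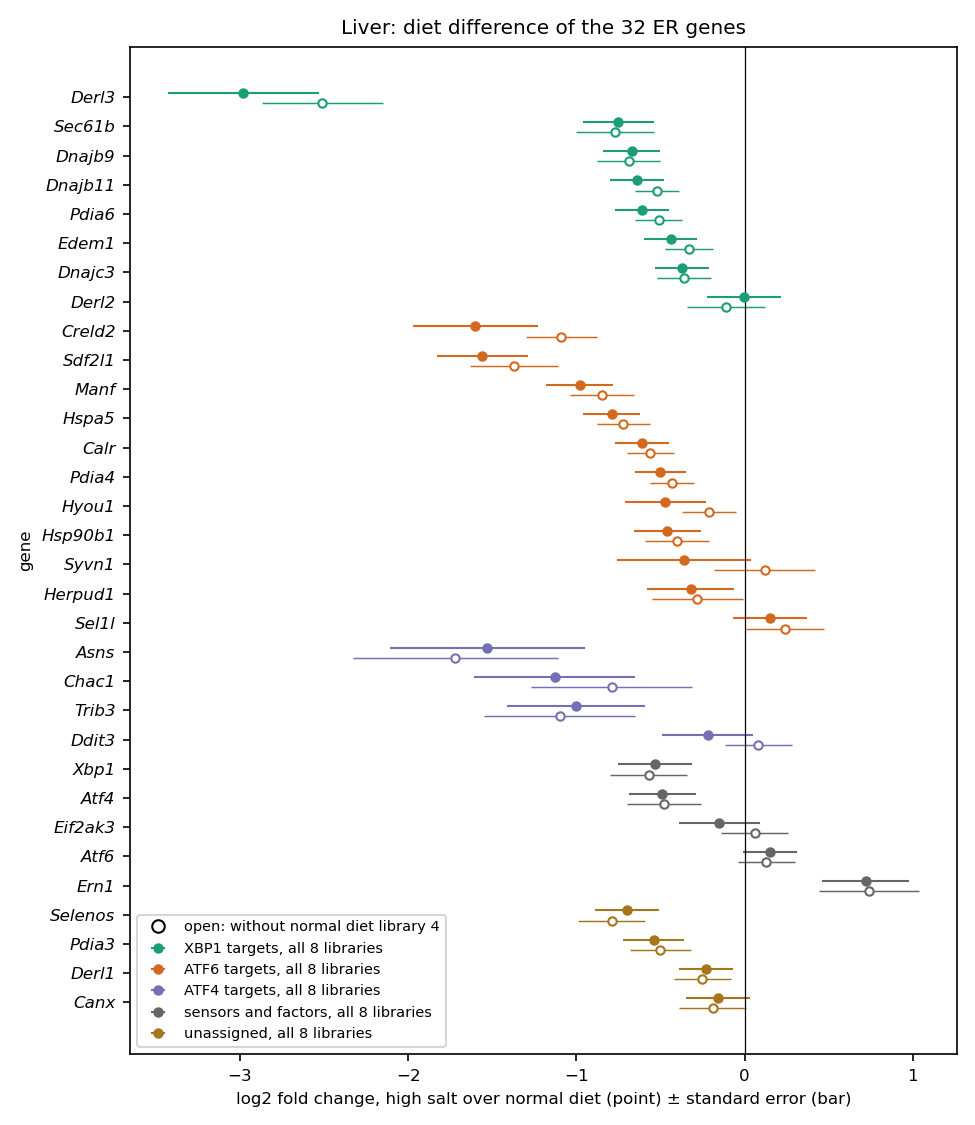
Log2 fold change (high salt over normal diet) of the 32 genes in liver on the horizontal axis, grouped by arm, with the standard error as a bar. Filled points use all 8 libraries and open points leave out normal diet library 4. Derl3 lies at -2.98 and Ern1 at 0.72, and Ddit3, Syvn1 and Eif2ak3 cross 0 without library 4.

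The 8 genes known as XBP1 targets include 2 derlins, membrane proteins of the channel through which misfolded proteins leave the ER. Derl3 (chr10:75893413-75895942, mm10) was at 2.92, 2.45, 6.51 and 10.04 CPM in normal diet libraries 1 to 4 and at 0.834, 0.580, 0.707 and 0.654 CPM in HS5 to HS8. All 4 high salt libraries were low and close together, and the normal diet libraries were more spread, with libraries 3 and 4 the highest. The means were 5.48 ± 3.54 and 0.694 ± 0.107 CPM (SD, n = 4 each), a 7.87-fold lower level (log2 -2.98 ± 0.45, SE), and -2.51 ± 0.36 without library 4. The counts behind this were 90 to 418 on the normal diet and 28 to 47 on high salt.

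The diets overlapped in the other derlins. Derl2 was at 113.5, 131, 75.6 and 80.0 CPM on the normal diet and at 82.4, 85.96, 127 and 104 CPM on high salt, with the diets interleaved (log2 -0.0035 ± 0.22). Derl1, which is placed in no arm here, was at 119, 128, 83.9 and 108 CPM against 92.8, 91.7, 97.0 and 92.3 CPM, also overlapping (log2 -0.23 ± 0.16). Per kilobase of exon, the mean normal diet liver level of Derl3 was 2.75 CPM, below Derl2 at 12.4 and Derl1 at 33.0, so the derlin with the large difference was the least abundant of the 3.

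Among the other XBP1 targets, those without overlap between the diets were Dnajb9, Dnajb11 and Dnajc3 (co-chaperones of BiP), Edem1 (a lectin that hands misfolded glycoproteins to ERAD) and Pdia6 (a disulfide isomerase). Their log2 fold changes ran from -0.67 (Dnajb9) to -0.37 (Dnajc3). Sec61b (chosen after its values were seen), a subunit of the translocation channel, was at 66.3, 66.9, 40.0 and 56.3 CPM on the normal diet and 28.2, 28.0, 42.8 and 37.3 CPM on high salt. It overlapped only through HS7 and normal diet library 3 (log2 -0.75 ± 0.21). Over the 8 genes the median was -0.63, with 6 of 8 below without overlap (6.05% of all genes). Without library 4 the median was -0.51 with the same count (10.2% of all genes).

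The 11 ATF6 targets held the most abundant chaperones. Sdf2l1 (chr16:17130138-17132384), a partner of the ER co-chaperones, was at 36.4, 30.6, 22.5 and 47.9 CPM on the normal diet and at 8.97, 9.57, 16.9 and 11.3 CPM on high salt. The means were 34.3 ± 10.7 and 11.7 ± 3.596 CPM (SD, n = 4 each), 2.95-fold lower (log2 -1.56 ± 0.27, and -1.37 ± 0.26 without library 4). Its diets did not overlap, and HS7 came closest to the normal diet. Creld2 (chr15:88819646-88826684), an ER protein secreted under stress, was at 24.7, 28.3, 39.9 and 84.8 CPM against 12.5, 12.3, 17.6 and 16.4 CPM. Library 4 stood at 2.12 times the next highest normal diet library, and the log2 fold change was -1.60 ± 0.37 with it and -1.09 ± 0.21 without it.

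Hspa5 encodes BiP, the main Hsp70 chaperone of the ER, and is named here although it was chosen after its values were seen, as are Manf, Chac1, Trib3 and Atf4. Hspa5 was at 712, 848, 820.1 and 966 CPM on the normal diet and at 467, 435, 530.2 and 505 CPM on high salt. The 2 ranges lay well apart, with means of 837 ± 104 and 484 ± 42.1 CPM (SD, n = 4 each), 1.73-fold lower. Manf, a secreted ER stress protein, was at 89.5, 112, 80.7 and 131 CPM against 45.6, 42.4, 64.3 and 58.0 CPM, 1.97-fold lower without overlap.

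Hsp90b1 (GRP94), Pdia4 and the lectin chaperone Calr were also without overlap, with log2 fold changes of -0.46, -0.50 and -0.61. Hyou1, Herpud1, Syvn1 and Sel1l overlapped. Syvn1 and Sel1l form the core of the HRD1 ubiquitin ligase of ERAD, and Sel1l had the highest log2 fold change of the group. Its values were 50.1, 50.7, 94.7 and 85.1 CPM on the normal diet and 82.4, 78.1, 71.5 and 78.4 CPM on high salt, all high salt values falling inside the normal diet range (log2 0.15 ± 0.22). Over the 11 ATF6 targets the median was -0.50 with 7 of 11 below without overlap (6.05% of all genes). Without library 4 the median was -0.43 with the same count (10.2% of all genes).

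**Figure D2:**
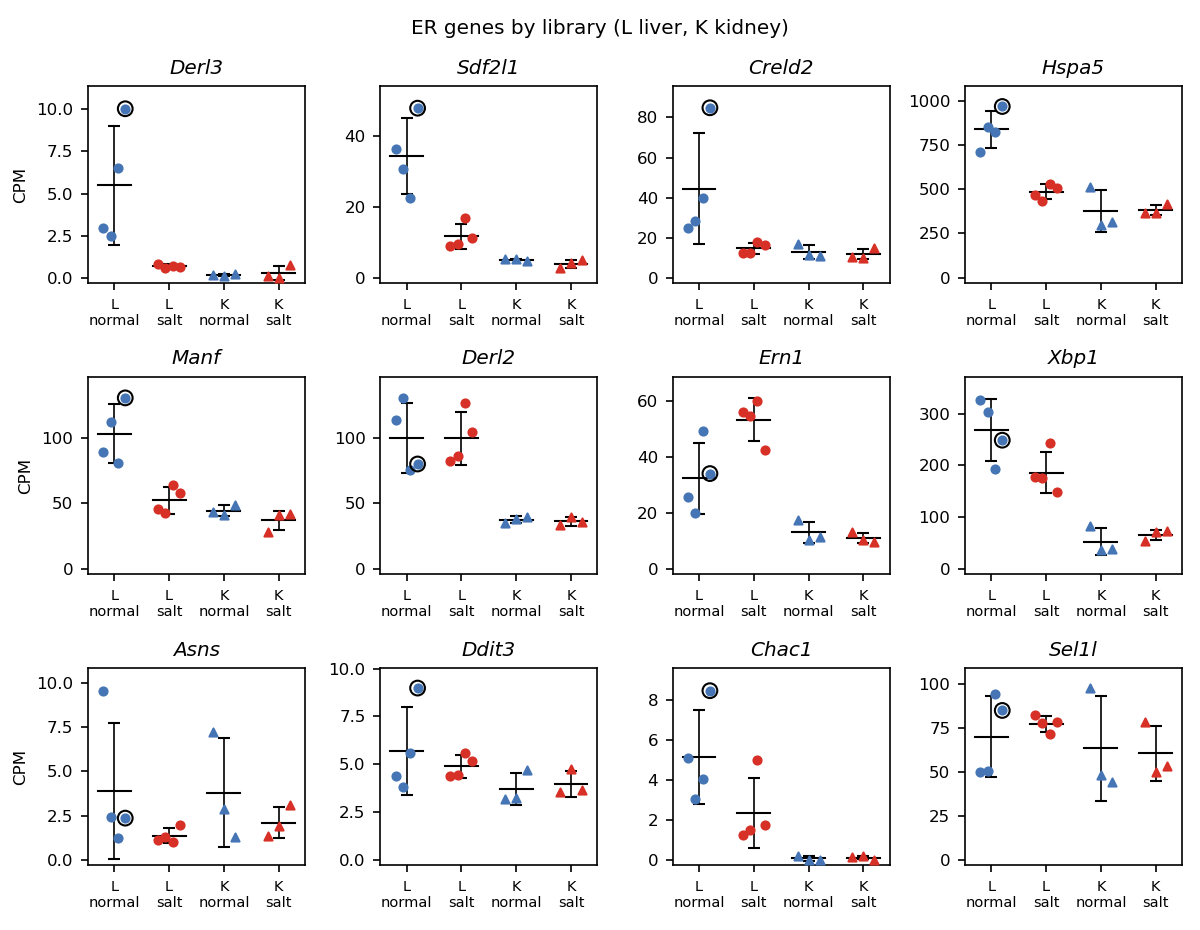
CPM (vertical axis, from 0, on a scale of its own per gene) of 12 genes in each liver (circles) and kidney (triangles) library on the normal diet (blue) and on high salt (red), with the mean as a line and the SD as a bar. The ringed point is normal diet liver library 4. Hspa5, Manf, Sdf2l1, Creld2 and Derl3 separate the diets in liver, and Derl2, Sel1l and Ddit3 do not.

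The 4 ATF4 targets behaved differently from one another, and in none of them were the diets apart in liver. Asns, asparagine synthetase, was at 9.58 CPM in normal diet library 1 and at 2.40, 1.23 and 2.35 CPM in libraries 2 to 4, against 1.14, 1.28, 1.02 and 1.96 CPM on high salt. Its log2 fold change of -1.53 ± 0.58 rested on library 1 and was -0.57 ± 0.34 without it. Ddit3, which encodes the death-associated factor CHOP, was at 4.40, 3.81, 5.60 and 8.99 CPM against 4.37, 4.43, 5.61 and 5.19 CPM. With all libraries its log2 fold change was -0.22 ± 0.27, and without library 4 it was 0.081 ± 0.20.

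Chac1, a glutathione-degrading enzyme, was at 5.11, 3.02, 4.03 and 8.46 CPM on the normal diet. On high salt it was at 1.24, 1.47 and 1.75 CPM in HS5, HS6 and HS8 and at 4.97 CPM in HS7, so HS7 stood within the normal diet range. Trib3, a pseudokinase that curbs ATF4 signalling, was at 8.39, 13.0, 2.45 and 6.08 CPM against 3.98, 3.42, 2.95 and 4.66 CPM, with normal diet library 3 the lowest of all 8. Over the 4 genes the median was -1.06, the lowest of any arm, with 0 of 4 without overlap. It was -0.94 without library 4 and -0.49 without normal diet libraries 1 and 2.

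The 5 sensors and factors were mixed, with 3 below 0 and 2 above, a median of -0.15 (0.060 without library 4) and 0 of 5 without overlap. Ern1, the gene of the IRE1 sensor, was the member with the highest log2 fold change of the whole set (0.72 ± 0.26). Its levels were 25.7, 20.1, 49.6 and 34.1 CPM on the normal diet and 56.2, 54.7, 60.3 and 42.6 CPM on high salt, overlapping only where HS8 fell below normal diet library 3. Without library 3 it was at 1.00 ± 0.21 and was the only member called higher, beside 2.40% of all genes. Xbp1 was lowest in this group, at 327, 304, 192 and 248.7 CPM against 177, 175, 243 and 149 CPM (log2 -0.53 ± 0.22). HS7 lay within the normal diet range for Xbp1, and these counts sum over both splice forms. Atf4 was at 118, 107, 95.01 and 111 CPM against 59.4, 58.7, 88.5 and 101 CPM (log2 -0.49 ± 0.20), with HS8 inside the normal diet range and HS7 just below it. Atf6 (0.15 ± 0.16) and Eif2ak3 (-0.15 ± 0.24) differed by less than their standard errors.

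The other members placed in no arm were the lectin chaperone Canx, the disulfide isomerase Pdia3 and the ERAD selenoprotein Selenos. Canx was at 179, 182, 288 and 203 CPM on the normal diet and 191, 190.5, 214 and 169 CPM on high salt, with the diets mixed (log2 -0.16 ± 0.19). Selenos was at 76.8, 93.2, 52.2 and 57.3 CPM against 42.3, 39.8, 47.0 and 43.04 CPM, with every high salt library below (log2 -0.70 ± 0.19). Normal diet libraries 1 and 2 held its highest values, and without them the log2 fold change was -0.35 ± 0.14. Pdia3 was also without overlap (log2 -0.54).

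Set side by side, the XBP1 and ATF6 targets had like medians with all libraries (-0.63 and -0.50). Without normal diet libraries 1 and 2 the medians were -0.55 and -0.79. The library medians of both arms separated the diets, those of the unassigned genes did so narrowly, and those of the ATF4 targets and the sensors did not. The median of the XBP1 targets relative to their normal diet mean (log2 of CPM plus 0.5) lay between -0.68 and -0.47 in the high salt livers and between -0.15 and 0.18 in the normal diet livers. For the ATF6 targets the ranges were -0.62 to -0.52 and -0.23 to 0.34. For the ATF4 targets they were -0.89 to -0.46 and -0.62 to 0.30, so the diets overlapped, and for the sensors and factors they were -0.23 to 0.024 and -0.15 to 0.074. For the unassigned genes they were -0.50 to -0.18 and -0.16 to 0.071. The differences between arms were not tested, and the arms share targets. Grouped by job, the 14 chaperones and oxidoreductases were all below 0 (median -0.61, 12 of 14 without overlap), and the 8 ERAD genes had 7 below 0 (median -0.34, 3 of 8 without overlap). The 9 genes with an ERSE had a median of -0.61 with 7 of 9 without overlap, and the 19 genes whose promoters lacked it had a median of -0.53 with 7 of 19. Beside each of these counts stands the 6.05% of all genes that lay below without overlap.

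**Figure D3:**
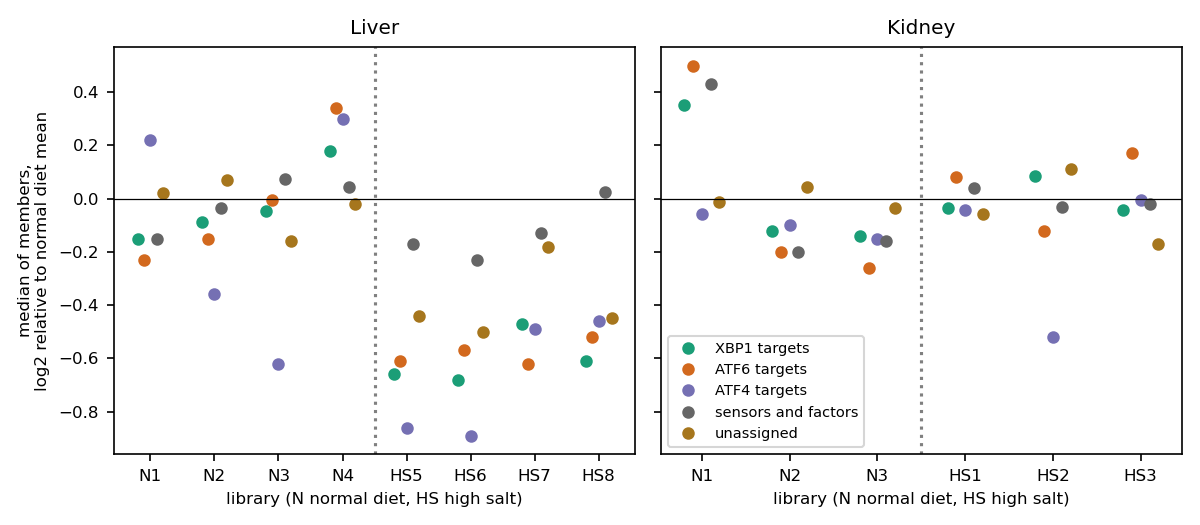
Median of the members of each arm in each library, as log2 relative to the gene's normal diet mean (vertical axis), for liver (left) and kidney (right), with libraries on the horizontal axis and a dotted line between the diets. In liver the XBP1 and ATF6 targets lie between -0.68 and -0.47 in all 4 high salt libraries, and the ATF4 targets reach -0.62 in a normal diet library. In kidney normal diet library 1 has the highest median of the XBP1 targets, the ATF6 targets and the sensors, but not of the ATF4 targets or the unassigned genes.

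Genes of the same pathways outside the set were counted in the same way in liver, and 0 of them passed an adjusted p of 0.05 by edgeR in any of the 5 lists. Those named were chosen after their values were seen. Of 19 tested genes for translocation, signal peptide cleavage and vesicle traffic, which are textbook XBP1 targets, 17 were below 0 (median -0.31). Of these, 7 were below without overlap (6.05% of all genes). The translocon-associated subunit Ssr4 was the lowest of these, at 201, 246, 141 and 156 CPM against 80.1, 81.6, 127 and 87.8 CPM (log2 -0.98 ± 0.23). Of 19 other ER folding factors 15 were below 0 (median -0.11), with the cyclophilin Ppib at -0.83 ± 0.19 and the disulfide isomerase P4hb at -0.58 ± 0.22. Of 19 other ERAD genes 15 were below 0 (median -0.20). Of the other ATF4 targets 7 of 23 were below 0 with all libraries, with a median of 0.14. Without normal diet libraries 1 and 2 they were near even, with 11 below 0 and 12 above (median 0.038). Without library 4, 6 were below 0 and 17 above (median 0.22). Among these ATF4 targets Ddit4, an inhibitor of mTORC1, was at -1.77 ± 0.42 (log2) and the factor Atf5 at 0.75 ± 0.25. Vldlr, a lipoprotein receptor, was at 0.238, 0.545, 0.629 and 0.529 CPM on the normal diet and at 1.44, 1.47, 1.23 and 3.32 CPM on high salt, every high salt library above (log2 1.95 ± 0.42). Fgf21, a hormone of the liver, was the other gene of this list with every high salt library above, at 0.119, 0.0273, 0.409 and 0.4085 CPM against 0.817, 1.39, 0.499 and 5.48 CPM. HS8 held the highest value of both, and the log2 fold change of Fgf21 (3.09 ± 0.89) exceeded in size that of any member. Vldlr and Fgf21 were 2 of 23 above without overlap, beside 6.44% of all genes, and 1 of 23 lay below without overlap, beside 6.05%. In the CREB3 family, membrane-bound factors cut like ATF6, 4 of 6 were below 0 (median -0.11), among them the liver factor Creb3l3 (log2 -0.57 ± 0.16). The unadjusted p was under 0.05 for 8, 8, 6, 5 and 2 genes of these lists in turn, and for 21.2% of all genes.

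Markers of other cell types that make much secreted protein were summed in the same libraries. Derl3 is known to be high in pancreas. Of 14 pancreatic acinar markers 12 had no row in the liver table, among them Prss2, Cpa1, Ctrb1 and Cel, and the 2 others, Cela1 and Cela2a, summed to 37.6 to 50.7 CPM on the normal diet and 14.2 to 35.3 CPM on high salt, almost all of it Cela1. Cela1 was also present in the normal diet kidneys, at 29.2, 57.3 and 63.2 CPM. Plasma cell markers (11 of 12 with a row) summed to 68.2 to 209.9 CPM on the normal diet and 91.1 to 160.3 CPM on high salt. Most of each sum was Sdc1. It was at 186, 140.5, 92.2 and 55.65 CPM in normal diet libraries 1 to 4 and at 122, 127, 83.0 and 119 CPM in HS5 to HS8. Myeloid markers (10 of 10) summed to 123 to 272 CPM against 87.7 to 164 CPM, with the 272 in library 4. Hepatocyte markers summed to 63715 to 85204 CPM against 96546 to 114690.5 CPM. Most of each hepatocyte sum was Alb, at 49452, 43322, 50637 and 32441 CPM against 73852, 71493, 85226 and 67824 CPM. Of the 8 hepatocyte markers 5 were below 0 on high salt and 3 above (median log2 -0.14). All 15 acute-phase genes were lower on high salt, with a median of -2.42, or -0.74 without library 4. The part of any of these in the members' differences was not tested.

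In kidney no member of the set passed the test between the diets. Of the 32 genes 30 passed the filter on low counts. With edgeR 0 of the 30 passed an adjusted p of 0.05, as did 0 of all 15847 genes (0%), and 0 of the 30 had an unadjusted p under 0.05, against 2.01% of all genes. DESeq2 called 11 genes of all (0.0694%). The members' median was -0.044 (all genes -0.025), and 19 of 30 were below 0 (53.7% of all). No member had every high salt library below every normal diet library (3.07% of all genes), and 1 had every high salt library above (3.85%). That gene was Herpud1, an ERAD scaffold, at 99.6, 99.9 and 106 CPM on the normal diet and 115, 106 and 133 CPM on high salt, where the 106 of each diet nearly met (log2 0.21 ± 0.19).

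The kidney members with the smallest unadjusted p were Asns, Sdf2l1 and Manf. Asns was at 7.24, 2.87 and 1.31 CPM in normal diet libraries 1 to 3 and at 1.34, 1.89 and 3.09 CPM on high salt (log2 -0.85 ± 0.60, edgeR adjusted p = 0.9996). As in liver, normal diet library 1 held the high value, and without it the log2 fold change was 0.031 ± 0.46. Sdf2l1 was at 5.20, 5.15 and 4.84 CPM against 2.81, 4.10 and 5.05 CPM (log2 -0.35 ± 0.27, edgeR adjusted p = 0.9996). Manf was at 43.7, 40.8 and 48.8 CPM against 28.4, 40.8 and 41.9 CPM (log2 -0.26 ± 0.21, edgeR adjusted p = 0.9996). The diets overlapped in all 3 genes.

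Hspa5 in kidney was at 513, 298 and 315 CPM on the normal diet and at 363, 366 and 414 CPM on high salt, so normal diet library 1 was the highest of the 6 and the others overlapped (log2 0.022 ± 0.26). Library 1 was the highest normal diet kidney for 19 of the 30 members, against 44.9% of all genes. The 2 genes below the filter were Derl3, with 3, 2 and 4 counts on the normal diet and 2, 0 and 17 on high salt, and Chac1, with 4, 0 and 0 counts and 3, 3 and 0. The 17 counts of Derl3 in high salt library 3 were the only ones above a handful, and a count of 0 is known only to lie under 3 counts. The medians of the arms in kidney were -0.041 (XBP1), -0.065 (ATF6) and 0.059 (ATF4). Whether the diet difference itself differs between liver and kidney was not tested.

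**Figure D4:**
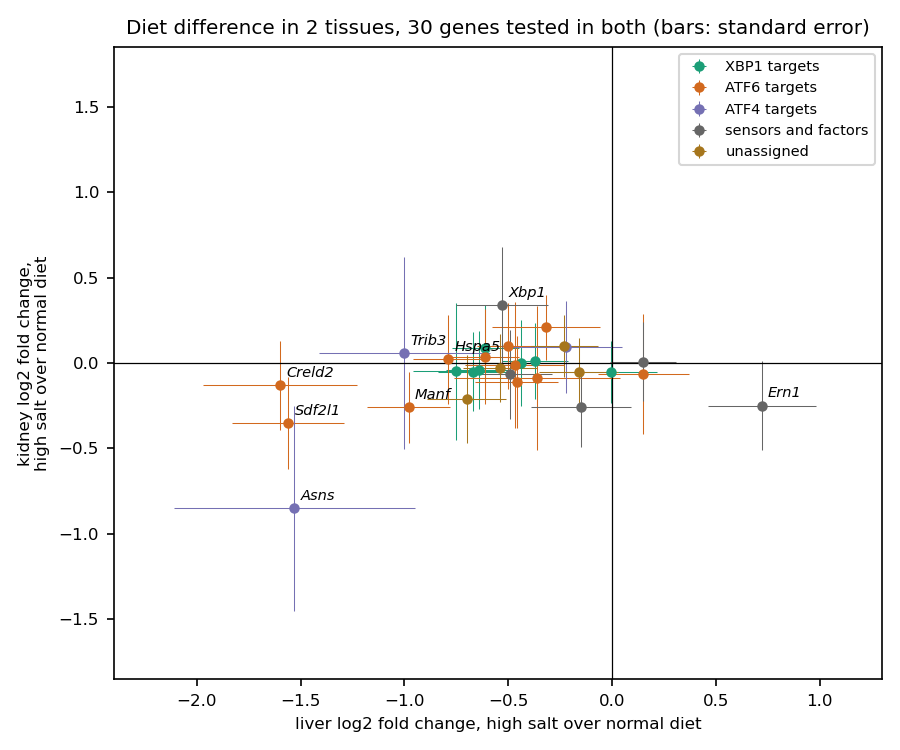
Log2 fold change (high salt over normal diet) in liver (horizontal axis) and kidney (vertical axis) of the 30 genes tested in both tissues, coloured by arm, with standard errors as bars. The points spread from -1.60 to 0.72 in liver and from -0.85 to 0.34 in kidney.

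On the normal diet the set was more abundant in liver than in kidney. This contrast of 4 liver and 3 kidney libraries was not itself used to choose the genes, but its livers are those in which Derl3 was high. With edgeR 26 of the 32 genes passed an adjusted p of 0.05 as higher in liver and 0 as higher in kidney, against 30.0% and 28.5% of the 15688 genes tested, 58.5% in all. Leaving out Derl3 and Chac1, which were too low in kidney to be tested there, 24 of 30 were called higher in liver. The median log2 difference (liver over kidney) was 1.47, and over all genes 0.073. Liver and kidney were quantified in separate tables, so tissue and table cannot be told apart.

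Chac1 and Derl3 lay at the head of the order and passed the filter through liver alone. Derl3 had 90 to 418 counts in normal diet livers and 2 to 4 in normal diet kidneys, or 3.03 to 11.4 against 0.0954 to 0.158 CPM when scaled together, and Chac1 was at 3.74 to 9.57 against 0 to 0.163 CPM. Trib3 came next, at 2.82 to 16.1 CPM in liver and 0.317 to 0.524 CPM in kidney (log2 4.46 ± 0.61, adjusted p = 1.7e-04). Syvn1 was fractionally above Sdf2l1 in this order, at 39.0 to 130 against 4.86 to 11.9 CPM (log2 3.31 ± 0.56, edgeR adjusted p = 6.4e-04). The chaperone partner Sdf2l1, named because it was called in the liver diet fit, was at 25.9 to 54.2 against 3.96 to 4.23 CPM (log2 3.30 ± 0.31, edgeR adjusted p = 1.4e-05). In all of these genes the tissues did not overlap.

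The smallest differences called were those of Dnajc3 (log2 0.85 ± 0.27, adjusted p = 0.0195), Dnajb11 (0.89 ± 0.27, adjusted p = 0.0171) and Atf6 (0.98 ± 0.25, adjusted p = 0.00750) with edgeR. Dnajc3 was at 204 to 241 CPM in liver and 103 to 152 CPM in kidney. Dnajb11 and Dnajc3 were not called without kidney library 2 or 3. Not called were Dnajb9 (log2 0.0064), Eif2ak3 (0.019), Pdia3 (0.31), Asns (0.56), Sel1l (0.67) and Canx (-0.64, adjusted p = 0.0812 with edgeR). Canx was the single member with the higher mean in kidney, at 359.7 to 444 CPM against 220.3 to 331 CPM in liver.

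With the high salt libraries in place of the normal diet libraries the median of the set was 1.01, with 24 genes called higher in liver (37.1% of all genes) and 2 called higher in kidney (33.8% of all genes), Canx and Dnajb9. Derl3 was then not called (log2 1.71 ± 0.71). Within normal diet liver, levels per kilobase of exon ran from 1.42 CPM (Asns) to 208 CPM (Calr), with Herpud1 at 199.9 and Hspa5 at 198. The 3 highest, Calr, Herpud1 and Hspa5, differed from each other by less than their spread over libraries. At the low end, next to Asns, stood the sensor gene Eif2ak3 (2.12), Derl3 (2.75), Chac1 (3.15) and Ddit3 (3.33).

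**Figure D5:**
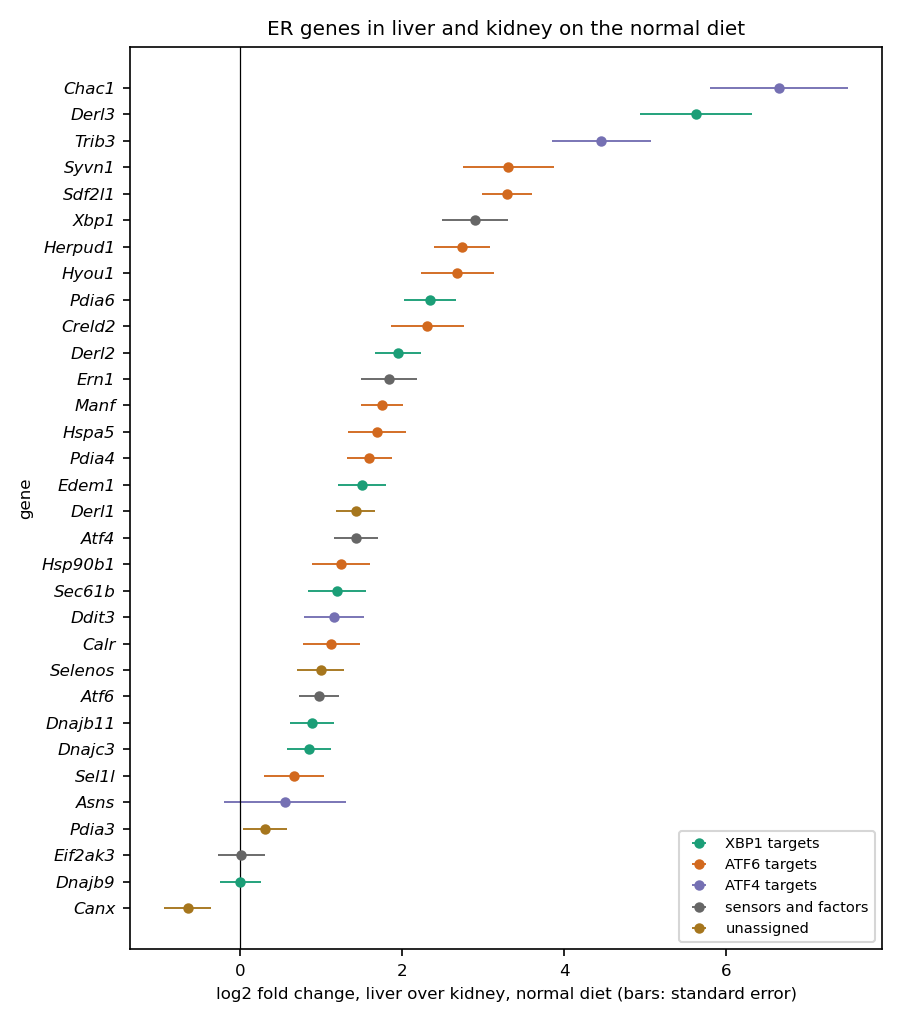
Log2 fold change of liver over kidney on the normal diet (horizontal axis) for the 32 genes, with the standard error as a bar and the arm as colour. Of these 26 were called higher in liver, and Canx, at -0.64, is the single gene left of 0.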

How the data were processed

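For each tissue the authors deposited a table of expected counts per gene, which per the file names Partek estimated by expectation maximisation (E/M). The submitters' processing notes name Partek 7.0, STAR 2.5.3a, DESeq2 and mm10, and per the labels' protocols libraries were made from total RNA with a SMARTER mRNA kit. Normalized tables were not used here.

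Expected counts were rounded and tested with edgeR 4.0.16 in R 4.3.3 (quasi-likelihood, TMM, filterByExpr), with Benjamini-Hochberg adjustment over all genes tested and a threshold of 0.05. CPM values use TMM library sizes, and errors of log2 fold changes are standard errors. High salt liver columns show their diet but no sample number. They were used as members of their group, and 0 columns were left out. edgeR's common coefficient of variation (liver 0.314, kidney 0.3) exceeds counting error for most members, so library spread sets the precision.

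The 32 genes, their arms, the pathway and marker lists and the motifs were chosen with earlier results of these data known. The genes given by library were the derlins, the members called, the highest and lowest of each arm in liver, the 3 smallest p-values in kidney, and the 3 highest and 3 lowest called in the tissue contrast, with others named as chosen after their values were seen. Exon lengths are from GENCODE M21, in which 97.8% of liver gene names were found, and promoters from RefSeq.

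The fits were tested on simulated data with 200 genes shifted by a log2 value of 2. They recovered 177 of these in liver over 15130 genes with 11 false calls, 150 in kidney over 15847 with 13, and 133 in the tissue contrast over 15688 with 7. With all libraries, Derl3 (log2 -2.98) was the only member that differed by more than this shift between the diets in liver. In kidney the largest member difference was 0.85 in size. The recovery of smaller shifts was not tested. Simulated counts were drawn independently for each gene and library, so they held no pair as alike as HS5 and HS6 and no library apart as a whole. Recovery and false calls under such conditions were not tested. Alternatives were RLE size factors, DESeq2 1.42.0, no filter or at least 10 counts in every library, removal of mitochondrial genes, leaving out libraries, summing HS5 and HS6, a replicate block, and high salt libraries for the tissue contrast.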

Additional observations from a re-analysis of the deposited data

Results flagged for a closer look

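In 4 of the 64 groups of 4 liver libraries (32 genes, 2 diets) a library stood apart from the other 3 by Dixon's ratio above its critical value. Chance alone would give about 3.20 for independent libraries. HS5 and HS6 were more alike than any other pair, so that number need not hold for the high salt groups. Asns was at 9.58 CPM in normal diet library 1 against 1.23 to 2.40 CPM in the other normal diet livers. Chac1 was at 4.97 CPM in HS7 against 1.24 to 1.75 CPM in the other high salt livers. Library HS8 stood apart for the chaperone regulator Dnajc3, at 119 CPM against 148 to 154, and for Hyou1, at 113 CPM against 89.5 to 92.2.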

How the results depend on the processing

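The liver count of 152 genes called was 1122 with DESeq2, 12 with HS5 and HS6 summed, 52 without normal diet libraries 1 and 2, 13 without library 4 and with HS5 and HS6 summed, and 12 to 765 when each library was left out. Members called lower in liver numbered 13 with DESeq2, 0 with HS5 and HS6 summed, with or without library 4, and 0 to 8 when each library was left out. Members called higher then numbered 0 to 1, and the members' median lay between -0.60 and -0.48. In kidney DESeq2 called 11 genes, 0 of them members, and Asns ran from -1.26 to 0.031 when each library was left out, the 0.031 without normal diet library 1. In the tissue contrast the members called higher in kidney were 1 with at least 10 counts in every library, 1 with DESeq2, 0 to 1 when each library was left out, and 2 with the high salt libraries, where the median was 1.01. The cause of these shifts was not tested. With RLE scaling the members' median was -0.52 in liver and -0.049 in kidney.

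Samples with the same number were not shown to pair: the correlations of their deviations were 0.41, 0.37 and -0.09 in kidney and -0.2, 0.17 and -0.15 between liver and kidney. With the replicate block 0 kidney genes were called (members' median -0.0036), and in the tissue contrast 7738 were called, 21 of them members, without Dnajc3 (0.84) and Dnajb11 (0.78). In liver the high salt columns carry no sample number, so no block could be fitted.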
